A study of Drosophila melanogaster with 12 samples.

Results

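The cytosolic ribosome is built from a large and a small subunit, each made of ribosomal RNA and a set of mostly small and basic proteins. Every growing or working cell needs these proteins, most of them in equal numbers, and their transcripts are among the most abundant in eukaryotic cells. In the fly, loss of 1 copy of many of these genes gives the Minute phenotype of slow development and thin bristles, and several genes have a second copy used mainly in the germ line.

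Genes of this kind were taken by name, as symbols with RpL, RpS or RpLP followed by a digit, which leaves out the mitochondrial ribosome. The rule found 37 of the 10843 genes with a probe set of their own, and each of the 37 had 1 probe set. Another 2 probe sets carried such a name beside that of another gene and were not used. By role, 27 were standard subunit proteins (13 of the large subunit, 3 of its stalk and 11 of the small subunit), 7 were second copies and 3 were relatives named "-like" whose yeast counterparts act in ribosome assembly. This division rests on textbook roles and was made with the values known.

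The RNA came from heads of adult cn bw flies, which carry the eye colour mutations cinnabar and brown in all samples. After entrainment to 12 hours of light and 12 hours of dark, flies were collected every 4 hours through another such day (ZT4 to ZT24, 6 arrays) and then through a day of constant darkness (CT4 to CT24, 6 arrays). Each array held RNA pooled from many heads. The labels name 2 extraction reagents as alternatives without assigning them to arrays, so a reagent effect was not tested. Age and sex are not given in the sources used here. There was 1 array per time point, so each p-value below measures the spread of arrays around a fitted curve, and darkness cannot be told apart from the later day or from any batch that follows it. In whole heads, fewer cells of a type and less RNA per cell cannot be told apart.

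Arrays differed in quality. An index of RNA quality was formed as the mean 3′ minus 5′ signal of 4 fly control genes on the log2 scale. The highest index was that of ZT24 (2.998), followed by CT4 (2.65) and ZT16 (2.37), and the remaining 9 arrays lay between 1.498 and 2.21. The SD of all log2 values on an array was 1.56 to 1.59 in ZT12, ZT16, ZT24 and CT4, against 1.64 to 1.69 in the other 8, so these 4 arrays had a narrower range between dim and bright probe sets. Photoreceptor markers such as Arr2 (mean 11.04) and trp (9.16) were bright, which goes with the label of heads. Muscle markers were low in CT4 (list median of -0.76 relative to each gene's mean), ZT16 (-0.65) and ZT12 (-0.54). In ZT16 the photoreceptor list was lower still (-0.78, with -0.37 in ZT12 and -0.33 in CT4) and head fat body markers were at -0.49; the part of these tissues in the members' low values there was not tested. CT8 had high gut markers (0.80) and low neuron markers (-0.60).

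The standard ribosomal protein genes lay at the top of the array. Of the 27, 26 had means over the 12 arrays between 9.60 and 11.61 on the log2 scale, all at or above percentile 98.7 of the 13966 probe sets tested. The exception was RpS29, a small-subunit protein with a zinc-binding fold, at 6.36 (percentile 82.6). The 10 second copies and relatives ran from 2.40 to 6.94. Probe sets bind their targets with different strength, so these levels give no order of transcript amounts between genes. Values of the standard genes were not constant: their SDs over the 12 arrays ran from 0.18 to 0.74 with a median of 0.35, against 0.15 for all probe sets and 0.40 for the 151 other genes with a mean of at least 9.

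**Figure D1:**
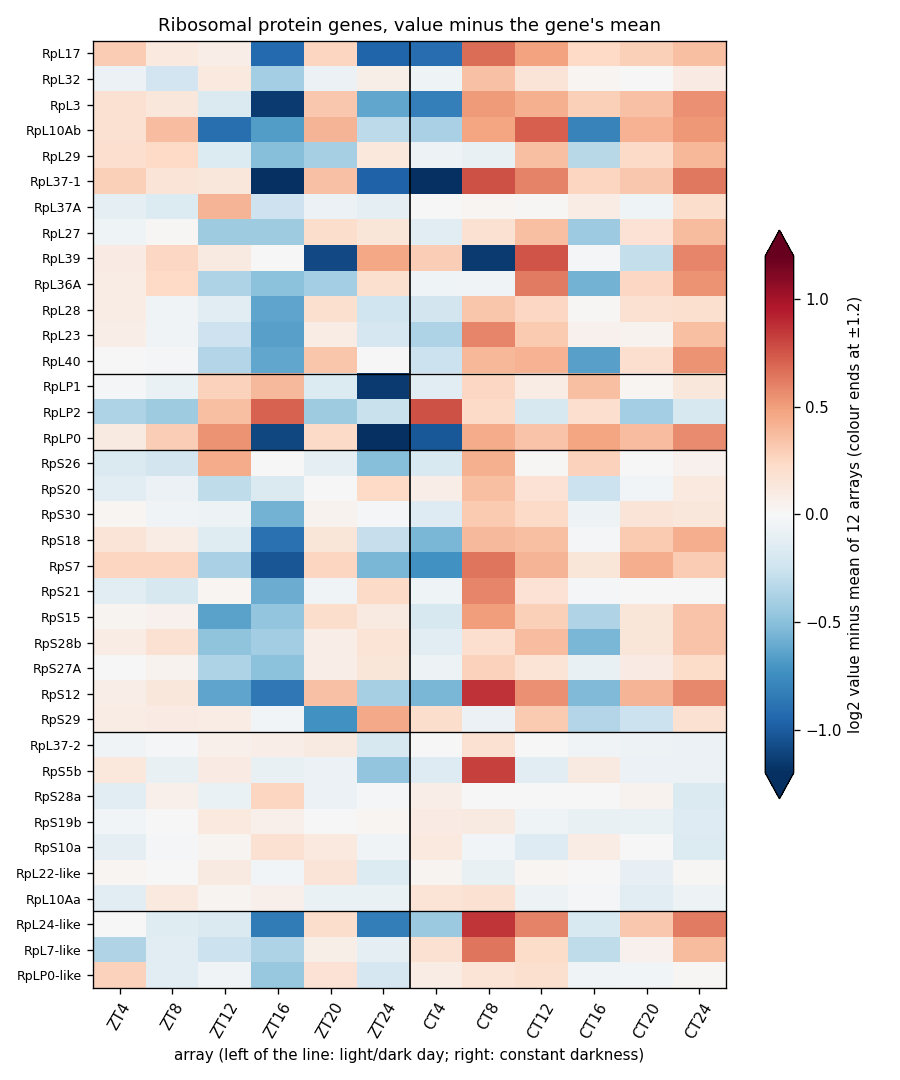
Log2 value of each of the 37 genes (rows) on each array (columns) minus the gene's mean over 12 arrays; horizontal lines separate, from the top, large subunit, stalk, small subunit, second copies and assembly relatives. Blue cells gather in ZT16, where 25 of the 27 standard genes lay below their own mean, and red cells in CT8, CT12 and CT24.

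As a group the standard genes were lowest in ZT16 and highest in CT8. Their median relative to each gene's mean was -0.51 in ZT16, -0.15 in CT4, -0.14 in ZT12 and -0.11 in ZT24. It was 0.37 in CT8, 0.34 in CT12 and 0.34 in CT24, and between -0.02 and 0.15 in the other 5 arrays. ZT16 held the lowest value of 13 of the 27 genes, and CT8 the highest of 12. The same medians over the 240 other probe sets with a mean of at least 9 were -0.44 in ZT16, -0.24 in CT4, 0.30 in CT8 and 0.21 in CT12, so the course was shared with bright probe sets in general. The 7 second copies stayed between -0.08 and 0.11.

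**Figure D2:**
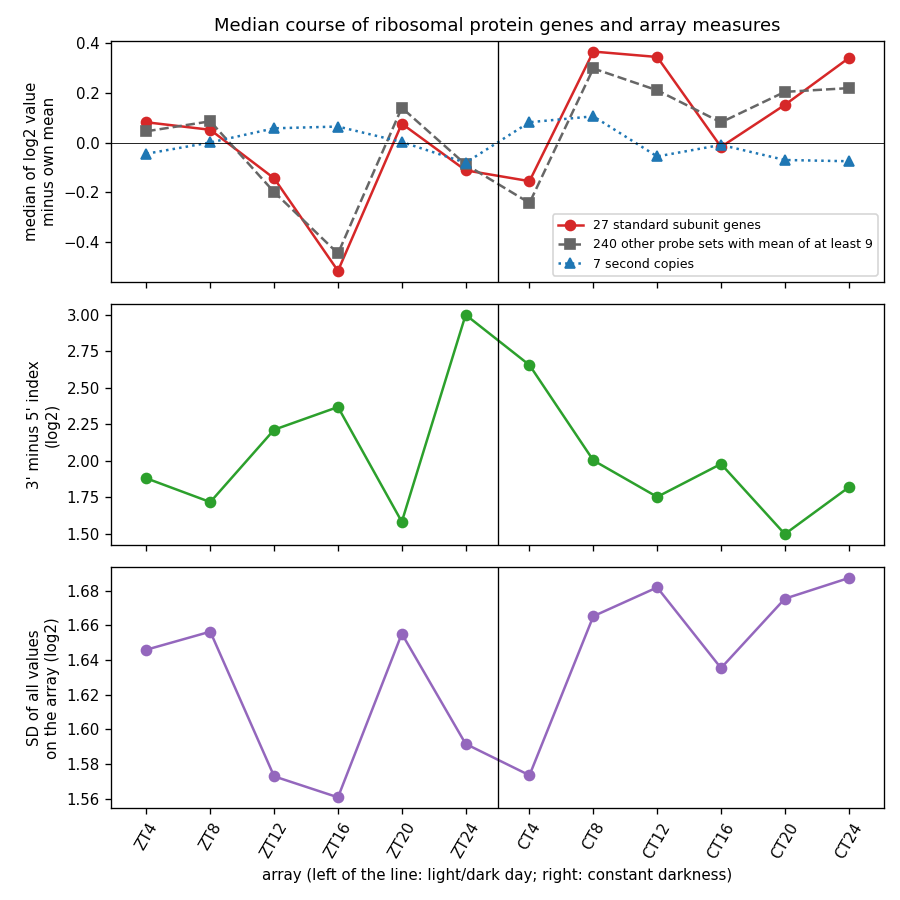
Top: median over genes of the log2 value minus the gene's own mean, by array, for the 27 standard subunit genes, the 240 other bright probe sets and the 7 second copies. Middle and bottom: the 3′ minus 5′ index and the SD of all log2 values of each array; the ribosomal median and the SD are both low in ZT12, ZT16, ZT24 and CT4.

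RpL3, a large-subunit protein close to the peptidyl transferase centre, measured 11.15, 11.10, 10.79, 9.81, 11.29 and 10.34 from ZT4 to ZT24. In constant darkness it measured 10.14 at CT4 and then 11.47, 11.39, 11.25, 11.32 and 11.51. Its 3 lowest arrays were ZT16, ZT24 and CT4, those with the highest index, and the 2 days overlapped. RpL37-1, another large-subunit protein, had the widest range of the 37 genes, from 8.84 in ZT16 to 10.94 in CT8, a 4.28-fold span. RpL17, which lines the exit tunnel, stood at 10.45 in ZT16, 10.42 in ZT24 and 10.47 in CT4, and at 11.46 or more in the other 9 arrays.

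A second set of large-subunit genes had its low points elsewhere. RpL10Ab, the protein of the mobile L1 stalk, was lowest at ZT12 (9.64), CT16 (9.74) and ZT16 (9.87), and reached 11.26 at CT12. RpL40, made as a fusion with ubiquitin, measured 8.95 at CT16, 8.98 at ZT16 and 9.25 at ZT12, and 10.14 at CT24. RpL27 was lowest in the same 3 arrays, with 9.44 at CT16 and 9.45 at both ZT12 and ZT16. CT12, the same hour as ZT12, held high values of all 3 genes, with 10.02 for RpL40 and 10.24 for RpL27.

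RpL32, the gene formerly called rp49 that serves as a common reference transcript in fly work, was among the steadier members, with a mean of 11.16 ± 0.19 (SD, n = 12), 10.75 at ZT16 and 11.51 at CT8. RpL37A was steadier still, at 10.07 ± 0.18, with its highest value at ZT12 (10.48). RpL39, a small protein of the exit tunnel, differed from the others described: it measured 8.74 at ZT20 and 8.68 at CT8, and 9.54 to 10.58 in the other arrays. RpL39 was at its lowest in CT8, the array that held the highest value of 17 of the 37 members. RpL23, RpL28, RpL29 and RpL36A, also of the large subunit, had means between 9.67 and 10.49 and SDs between 0.27 and 0.39.

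The 3 proteins of the stalk, the arm that recruits the GTP-binding translation factors, did not move together. RpLP0, the base of the stalk, was at 9.68 in ZT24, 9.85 in ZT16 and 9.92 in CT4, and between 11.04 and 11.50 in the other 9 arrays. RpLP1, 1 of the acidic proteins that dimerise on it, was low in ZT24 alone (10.13), with 11.12 to 11.66 elsewhere. RpLP2, its partner, was highest in CT4 (11.80) and ZT16 (11.75), 2 of the arrays where RpLP0 was low, and lowest in ZT8 (10.61). Pearson's r over the 12 arrays, as a description, was 0.53 between RpLP0 and RpLP1, 0.39 between RpLP1 and RpLP2, and -0.42 between RpLP0 and RpLP2.

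Small-subunit genes showed the same shapes. RpS7 measured 9.70 in ZT16, 9.999 in CT4 and 10.18 in ZT24, and up to 11.37 in CT8. RpS18 went from 10.26 in ZT16 to 11.59 in CT24. RpS12, which in the fly also takes part in sensing cells that lack a ribosomal protein gene copy, ran from 8.82 in ZT16 to 10.54 in CT8. These 3 genes were below their own mean in ZT16, ZT24 and CT4, the arrays with the highest index.

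RpS28b was lowest at CT16 (9.99), ZT12 (10.05) and ZT16 (10.11), as were RpS15, RpS27A and RpS20 in the same 3 arrays in another order. RpS26, the brightest member at 11.61 ± 0.28 (SD, n = 12), had its high points at ZT12 (12.05) and CT8 (12.03) and its low point at ZT24 (11.09). Among the standard small-subunit genes RpS20, RpS21, RpS27A and RpS30 varied least, with SDs of 0.20, 0.28, 0.23 and 0.22. RpS29 resembled RpL39: it was lowest at ZT20 (5.63) and highest at ZT24 (6.82), and r between the 2 genes was 0.77.

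**Figure D3:**
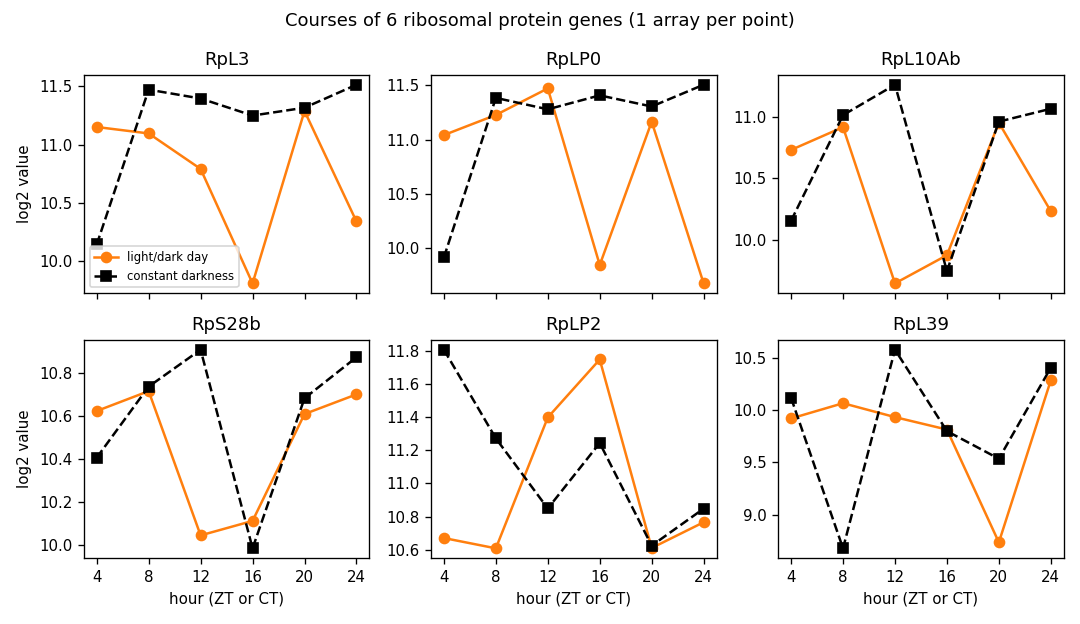
Log2 value against hour for 6 genes, 1 array per point, with the light/dark day as circles and constant darkness as squares; each panel has its own vertical scale. RpL3 and RpLP0 drop in ZT16, ZT24 and CT4, RpL10Ab and RpS28b in ZT12, ZT16 and CT16, RpLP2 is high in ZT16 and CT4, and RpL39 drops in ZT20 and CT8.

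The second copies, which are used mainly in ovary or testis in the fly, were dimmer in heads than the standard genes other than RpS29, and all but RpS5b had SDs of 0.09 to 0.11. RpL10Aa measured 2.40 ± 0.11 (SD, n = 12), at percentile 1.5 of the probe sets, where its standard copy RpL10Ab measured 10.55 ± 0.58. RpL22-like was at 3.15 ± 0.09 and RpS10a at 4.26 ± 0.11. RpS19b was at 5.01 ± 0.09 and RpS28a at 5.27 ± 0.11. These 4 lay at percentiles 14.0, 36.7, 53.9 and 60.1. RpL37-2 stood higher, at 6.94 ± 0.10 (percentile 90.1), above RpS29. The lowest of these values can be background rather than transcript, and binding of the standard copy's transcript to a second copy's probes was not tested. As a description over the 12 arrays, r between copies was -0.21 for RpL10Aa and RpL10Ab, -0.34 for RpS28a and RpS28b, and 0.23 for RpL37-1 and RpL37-2.

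RpS5b, the germ-line copy of RpS5a in the fly ovary, was the second copy that varied most. It measured 6.96 in CT8 and between 5.67 and 6.27 in the other 11 arrays. CT8 is the array with high gut markers, and the part of those tissues in this value was not tested. Ovary markers had a list median of 0.09 in CT8 relative to each gene's mean. Of these markers osk and vas were near the floor, both at a mean of 2.88, and bam was at 3.48. The others were brighter, with otu at 5.93, Cp18 at 6.92 and Cp36 at 7.36.

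The 3 assembly relatives were all lowest in ZT16 but differed in range. RpL24-like, whose yeast counterpart Rlp24 holds the place of the mature protein during assembly, followed the standard genes, from 5.56 in ZT16 and 5.57 in ZT24 to 7.26 in CT8. RpL7-like, related to yeast Rlp7, ran from 5.29 in ZT16 to 6.31 in CT8. RpLP0-like, related to the yeast assembly factor Mrt4, ran from 4.17 in ZT16 to 4.90 in ZT4. As a description, Pearson's r with the median of the other members was 0.92 for RpL24-like, 0.72 for RpL7-like and 0.73 for RpLP0-like.

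Members were also grouped by their 3 lowest arrays. For 8 of the 37 genes the 3 lowest arrays were ZT16, ZT24 and CT4 (RpL3, RpL17, RpL28, RpL37-1, RpLP0, RpS7, RpS18 and RpL24-like), a trio shared by 6.36% of the 10806 genes that are no members and by 19.9% of the 151 bright ones. For another 7 the lowest were ZT12, ZT16 and CT16 (RpL10Ab, RpL27, RpL40, RpS15, RpS20, RpS27A and RpS28b), against 1.99% of other genes and 11.3% of bright ones. The members' share in the first trio was thus near that of bright genes. ZT12, ZT16 and CT4 were the lowest arrays of 22.5% of the bright genes and of 2 members, RpS12 and RpL23. These are counts with no test, and bright genes share the same array properties.

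As a description of sets formed on these same values, Pearson's r over the 12 arrays was compared within and across them for the standard genes. In the first set it ran from 0.78 to 0.99 (median 0.95, 21 pairs), in the second from 0.60 to 0.96 (median 0.91, 21 pairs), and across the sets from -0.16 to 0.79 (median 0.58, 49 pairs), so the ranges overlapped. The highest values were 0.99 between RpL17 and RpL37-1, 0.98 between RpL3 and RpL37-1, 0.96 between RpL27 and RpL40, and 0.96 between RpL27 and RpS28b. Between RpL3 and RpL27, of different sets, r was 0.56. Over all 351 pairs of standard genes the median r was 0.49, with 67 pairs above 0.8 and 82 below 0. The lowest was -0.70, between RpS18 and RpLP2. All genes of a pair were read on the same arrays, so array properties enter each r.

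Each member was also set against the median of the other 36. The closest were RpL23 (r = 0.96), RpL28 (0.95), RpS30 (0.94) and RpS18 (0.93), and the most opposed were RpS10a (-0.71), RpS28a (-0.65), RpLP2 (-0.50) and RpS19b (-0.38). The median r was 0.73 for the standard genes, against 0.61 for the 151 other bright genes and -0.14 for all 10806 other genes.

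Outside the family, the 6 genes most like the members' median over the 12 arrays had r from 0.95 to 0.98. They were und, an aminopeptidase that removes the first methionine of new proteins (0.98), the RNA helicase Ddx56 (0.96), LTV1, a factor of small-subunit assembly in yeast (0.96), CG13607 (0.96), CG5577 (0.95) and Antdh (0.95). LTV1 measured 6.94 in ZT16 and 8.53 in CT8, and all 6 genes were lowest in ZT16. Of the genes outside the family 339, or 3.14%, had an r above 0.8.

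To see which members moved with array quality, the index was added to a limma fit with a step between the days and a common daily curve. The slope on the index passed the threshold of adjusted p = 0.05 in 11 of the 37 genes (29.7%), against 18% of all probe sets. Of these, 10 fell with the index (background 9.51%) and 1 rose (background 8.51%). Among the 240 other probe sets with a mean of at least 9, 93 passed (38.8%), 84 of them falling, so the members' share lay between that of all and that of bright probe sets.

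Fitted slopes are log2 changes per unit of the index. RpL37-1 fell by 1.31 ± 0.29 (SE, n = 12; limma, adjusted p = 0.0117), RpLP0 by 1.21 ± 0.26 (adjusted p = 0.0099) and RpL17 by 1.07 ± 0.20 (adjusted p = 0.0059). RpL3 fell by 1.01 ± 0.22 and RpS7 by 0.97 ± 0.19. RpL10Ab, RpS12, RpL24-like, RpS18 and RpL28 fell by 0.94, 0.91, 0.84, 0.68 and 0.42. RpLP2 was the member that rose, by 0.71 ± 0.21 (limma, adjusted p = 0.0376). All 8 genes lowest in ZT16, ZT24 and CT4 were among the 10 that fell, and 1 of the 7 lowest in ZT12, ZT16 and CT16 was (RpL10Ab). The first set was picked on these same values as lowest in the arrays with the highest index. Falling slopes of its genes follow largely from that choice and are no separate result. The slopes of RpL32 (0.01 ± 0.12), RpL37A (0.02 ± 0.13), RpS21 (0.03 ± 0.17) and RpS20 (0.06 ± 0.13) were close to 0.

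These calls lean on few arrays. The count of 11 became 4 without CT4 (RpL3, RpL17, RpL37-1 and RpS7), 5 without ZT20, 18 without ZT24 and 0 without both ZT24 and CT4. The share of all probe sets that passed moved too. It was 7.69% without CT4, 11.1% without ZT20 and 21.5% without ZT24, against 18% with all arrays. The median slope over the members was -0.38 without both ZT24 and CT4, against -0.23 with all arrays. RpLP0 fell by 1.0017 to 1.39 whichever single array was left out. With muscle markers as a further covariate the count was 0 and the median slope -0.0286, and no probe set on the array passed either. Muscle markers were low in 2 of the 3 arrays with the highest index, CT4 and ZT16. Their part in the slopes was not tested. RpLP0 was lost without CT4 (adjusted p = 0.0557), and RpL24-like (0.0536) and RpS18 (0.0566) without ZT20 as well as without CT4 (0.0774 and 0.0833). RpS12 was lost without ZT16 (0.0565), ZT20 (0.0755) or CT4 (0.1138). RpL10Ab was lost without any of ZT8, ZT20, CT4 or CT20 (0.0502 to 0.1210), RpL28 without any of ZT4, ZT16, ZT20, CT4, CT20 or CT24 (0.0525 to 0.1513), and RpLP2 without any array but ZT24, CT8 or CT12 (0.0518 to 0.1724).

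Between the days, most members had higher fitted values in constant darkness, with or without the index. With the index, the estimate was above 0 in 33 of the 37 genes, against 47% of all probe sets, and the median was 0.17 on the log2 scale, against -0.01. Without it the count was again 33 (background 44.5%) and the median 0.20. No member passed the test in either fit (limma, 0% of probe sets passed), 2 members had an unadjusted p under 0.05 in each fit (backgrounds 4.43% with and 3.65% without the index), and no member had days that did not overlap (background 0.193%). The 240 other bright probe sets had medians of 0.15 with and 0.21 without the index, and 78.75% and 81.25% of them were above 0. The members' median was thus close to that of bright probe sets.

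All 27 standard genes were above 0 in the fit with the index, where 47% of all probe sets and 78.75% of the 240 other bright ones were. The count was 22 after quantile normalization and 18 with array SD in place of the index, where the share of other probe sets was not counted. In the fit with the index the standard genes ran from 0.07 ± 0.14 (SE, n = 12) for RpS29 and 0.07 ± 0.14 for RpS28b to 0.28 ± 0.20 for RpS12. The median was 0.18 for the large subunit and 0.18 for the small subunit. For the stalk the differences were 0.26 ± 0.17 for RpLP2, 0.19 ± 0.16 for RpLP1 and 0.18 ± 0.21 for RpLP0. The index moved single genes most where the slope was steep: RpL37-1 went from 0.46 ± 0.39 to 0.23 ± 0.24, RpLP0 from 0.39 ± 0.36 to 0.18 ± 0.21 and RpL3 from 0.43 ± 0.30 to 0.26 ± 0.18. RpL32, with a flat slope, stayed at 0.20 ± 0.10 in both fits, which is 1.15-fold. Its light/dark values ran from 10.75 to 11.27 with a median of 11.09, and those in constant darkness from 11.11 to 11.51 with a median of 11.22, so the days overlapped.

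The largest differences with the index belonged to RpL24-like and RpL7-like. RpL24-like averaged 6.10 ± 0.44 (SD, n = 6) under light/dark and 6.70 ± 0.51 under constant darkness, and its difference was 0.44 ± 0.16 (SE) with the index and 0.59 ± 0.26 without. RpL7-like measured 5.31, 5.53, 5.41, 5.29, 5.73 and 5.56 from ZT4 to ZT24 and 5.85, 6.31, 5.89, 5.36, 5.72 and 6.05 from CT4 to CT24, a difference of 0.37 ± 0.14 with the index. Both missed the threshold over all probe sets (limma, adjusted p = 0.9928 with the index), and in both genes the days overlapped. The differences of the second copies ran from -0.05 ± 0.06 for RpL22-like to 0.13 ± 0.15 for RpS5b.

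The size of the shift and the number of genes above 0 depended on how the arrays were scaled. After quantile normalization of the 12 arrays the median over the members was 0.06 with the index and 0.05 without it, with 28 and 24 of 37 genes above 0. With the SD of all values on each array as covariate in place of the index it was 0.05, with 25 genes above 0. The medians of the 240 other bright probe sets also shrank. After quantile normalization they were 0.026 with and 0.026 without the index, and with array SD the median was 0.012.

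**Figure D4:**
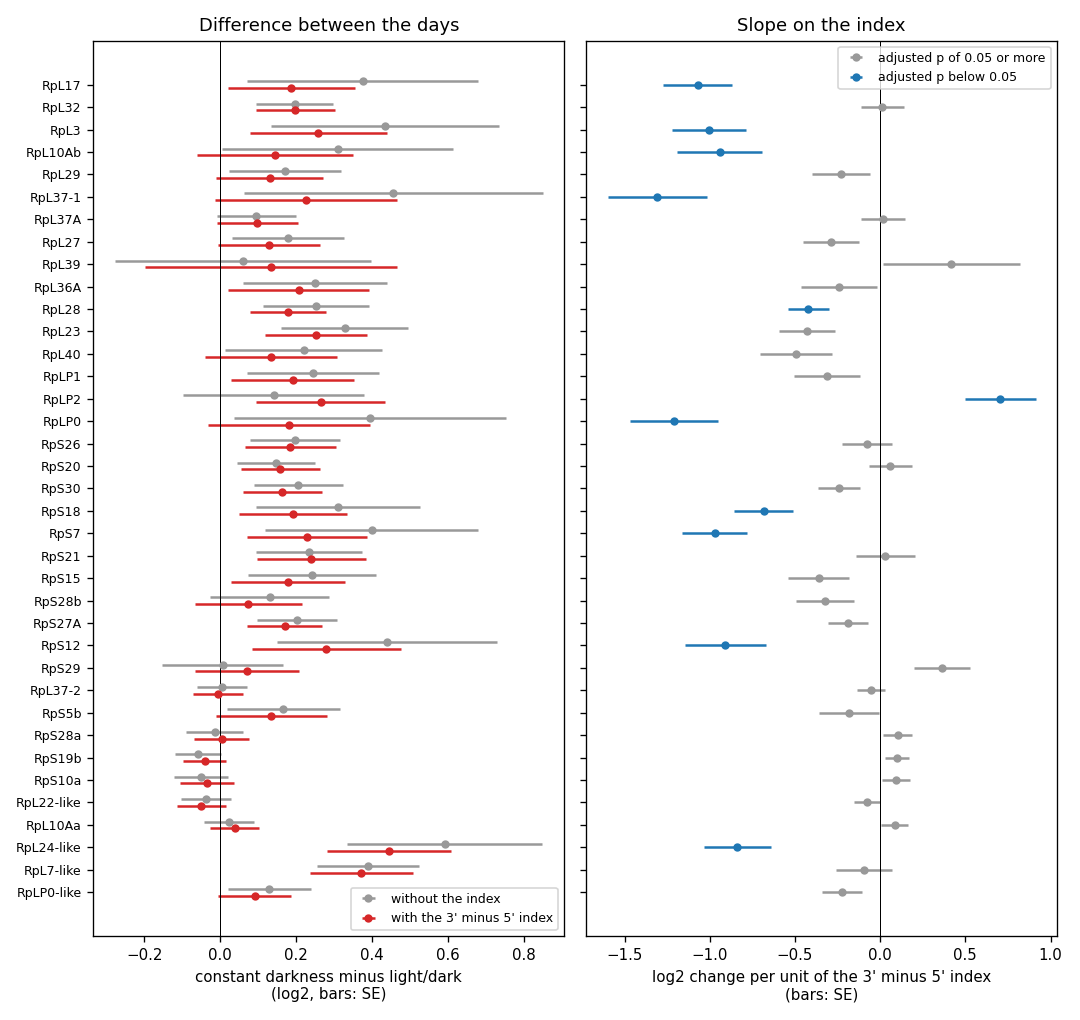
Left: difference between the days (constant darkness minus light/dark, log2) for each of the 37 genes, in grey without and in red with the 3′ minus 5′ index in the fit. Right: slope on the index, in blue where limma's adjusted p was below 0.05. Bars are standard errors. All 27 standard genes lie above 0 on the left with the index (22 after quantile normalization and 18 with array SD in its place, not drawn). With the index 47% of all probe sets and 78.75% of the 240 other bright ones were above 0 (not drawn). On the right, 10 genes fall and RpLP2 rises with the index.

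No member passed the test for a daily rhythm over both days (limma, smallest adjusted p = 1 without the index and 0.8065 with it), where 0.00716% of probe sets passed in each fit. At an unadjusted p under 0.05 there was 1 member without the index, RpS26 (background 1.65%), and 0 with it (background 5.76%). RpS26 had an amplitude, the fitted peak minus the fitted mean, of 0.24 ± 0.08 on the log2 scale with a peak at 12.7 hours. The next was RpLP1, with 0.34 ± 0.12 at 13.0 hours, followed by RpS29 with 0.25 ± 0.11 at 5.8 hours. The median amplitude of the standard genes was 0.19, against 0.14 for the 151 other bright genes. With a separate curve per day it was 0.34 against 0.31 in the light/dark day and 0.15 against 0.21 in constant darkness. The order of the 2 groups was thus not the same on both days.

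Most fitted peaks lay in the first part of the day. Of the 27 standard genes 17 peaked between 0 and 6 hours, 7 between 6 and 12 and 3 between 12 and 18, in both fits. The share of other probe sets that peaked there was not counted, in these fits or within each day. The median of the 240 other bright probe sets was also low in ZT12 (-0.20) and ZT16 (-0.44). With the index the smallest p-values were those of RpS28b (0.28 ± 0.10 at 3.0 hours), RpL10Ab (0.40 ± 0.15 at 3.2 hours) and RpS26 (0.23 ± 0.08 at 12.6 hours), none of which passed. RpS28b and RpL10Ab belong to the set with low values in ZT12, ZT16 and CT16.

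Within the light/dark day 0 members passed in limma (background 0%), and 2 had an unadjusted p under 0.05 (background 3.42%): RpLP1, whose curve had an amplitude of 0.56 ± 0.16 and peaked at 12.6 hours, and RpL29, with 0.41 ± 0.13 at 5.0 hours. Next came RpS27A, made like RpL40 as a fusion with ubiquitin, with 0.29 ± 0.10 at 1.8 hours. The RpLP1 amplitude was 0.26 without ZT24, where that gene had its low value. In constant darkness 0 members passed (background 0%) and 0 had an unadjusted p under 0.05 (background 1.73%). The smallest p-values there were those of RpL7-like (0.31 ± 0.12 at 5.6 hours), RpS20 (0.22 ± 0.09 at 6.5 hours) and the dim RpL10Aa (0.15 ± 0.06 at 6.6 hours).

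Fitted peaks of the standard genes lay between 0 and 6 hours for 18 of 27 in the light/dark day and for 5 of 27 in constant darkness. The difference of the rhythm itself passed in 0 members (limma, background 0.00716%), with 0 at an unadjusted p under 0.05 (background 2.62%). The smallest p-values were those of RpLP2, whose curve peaked at 14.6 hours under light/dark and at 6.2 hours in darkness (size of the difference 0.76 ± 0.28, SE, n = 12), RpS20 (0.32 ± 0.12) and RpL7-like (0.37 ± 0.17). The high values of RpLP2 were in ZT16 and CT4, both with a high index; their part in this difference was not tested.

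Other genes of protein synthesis were compared between the days in the same way, with no test between lists. With the index in the fit, 0 genes of any of these lists passed in limma. Of 37 initiation factor genes 24 (64.9%) were above 0, where 47% of all probe sets and 89.2% of the members were, with a median of 0.08 and 2 (background 4.43%) at an unadjusted p under 0.05, eIF3f1 (0.34 ± 0.14) and eIF3d1 (0.30 ± 0.14), followed by eIF4E6 (0.11 ± 0.06). Of 4 elongation factor genes all 4 were above 0, with eEF1gamma at 0.31 ± 0.15, eEF1alpha2 at 0.33 ± 0.23 and eEF1delta at 0.28 ± 0.27. Of 64 mitochondrial ribosomal protein genes 51 (79.7%) were above 0 with a median of 0.07, such as mRpS26 (0.16 ± 0.07), mRpS9 (0.26 ± 0.12) and mRpS22 (0.11 ± 0.06).

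Genes that make or control ribosomes were read beside the same 47% of all probe sets. Of 17 genes of ribosome assembly and RNA polymerase I, 10 (58.8%) were above 0 and 7 below, with a median of 0.03, among them Non1 (0.40 ± 0.20), eIF6 (0.14 ± 0.08) and Polr1B (-0.11 ± 0.06). Of 10 regulators of ribosome production, 4 (40%) were above 0 and 6 below, with a median of -0.02, such as the transcription factors Dref (-0.08 ± 0.06), Trf2 (-0.07 ± 0.05) and Mnt (-0.13 ± 0.12).

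The slope on the index passed in 13 of the 37 initiation factor genes, 2 of 4 elongation factor genes, 19 of 64 mitochondrial ribosomal protein genes, 4 of 17 assembly genes and 2 of 10 regulators. These are 35.1%, 50%, 29.7%, 23.5% and 20%, against 18% of all probe sets and 38.8% of the bright ones. The translation helicase eIF4A was among those that fell, but its own 3′ and 5′ control signals are part of the index. The elongation factor eEF1alpha2 fell by 1.997 ± 0.28, more than any ribosomal protein gene, while Nopp140 and Fib, both proteins of the nucleolus, rose by 0.99 ± 0.10 and 0.57 ± 0.08.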

How the data were processed

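The authors deposited log2 expression values, 1 per probe set and array, which the submitters' processing notes describe only as RMA; the log base is inferred from their range of 1.72 to 13.52. RMA values understate changes of weakly expressed genes. Of 14010 probe sets, 44 controls were set aside and 13966 tested; 12442 of these had 1 gene and 327 several. Names were updated through gene identifiers in a RefSeq table of Release 6 plus ISO1 MT; no coordinates are given. Models were fitted with limma 3.58.1 in R 4.3.3 over all tested probe sets, with Benjamini-Hochberg adjustment over all of them: a step between the days with a cosine and sine of 24 hours, the same with the quality index, and separate curves per day. The index is the mean 3′ minus 5′ value of actin, eIF-4a, GAPDH and 18S rRNA. The fits were run on simulated data with large planted effects and independent noise. Array effects shared by probe sets were not simulated, so this checks the code alone. Initiation factors leave out eIF5A and eIF6, which other lists hold. With arrays there is no read depth; precision is limited by the number of arrays.

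Named members were the 10 with the highest and 6 with the lowest mean, the stalk, the pairs of copies, the 3 with the smallest p per test (all that passed, for the slope) and the 4 most and 4 least like the median; further members are given as examples chosen after their values were seen. In the related lists, genes are named by smallest p. Members, lists and tests were chosen with earlier results of these data known. Alternatives were another normalization, 16 added on the linear scale, a filter at the median level, other indices, the hour of day as a block, and leaving out arrays.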

Additional observations from a re-analysis of the deposited data

Results flagged for a closer look

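Within each day of 6 arrays, a value was singled out where its gap to the nearest other array exceeded Dixon's critical share of the range. Chance gives about 1 such value in 20 groups; with 76 groups (37 genes and their median, on each day) about 3.8 would come by chance, and 15 were found. The genes share arrays, so the 15 are not independent.

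In constant darkness, CT4 stood below the other 5 arrays for RpL17 (10.467), RpL3 (10.144), RpLP0 (9.917), RpS7 (9.999) and RpL37-1 (8.957). CT4 had the second highest 3′ minus 5′ index, and its part in these values was not tested. CT8 stood above the others for RpS21 (11.291), RpS5b (6.956) and RpL37-2 (7.125), and CT24 below them for RpS28a (5.105).

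In the light/dark day, ZT16 stood low for RpS30 (10.586) and for the median of the 37 genes relative to each gene's mean (-0.452). ZT24 stood low for RpLP1 (10.129) and RpS5b (5.669), ZT20 low for RpL39 (8.735) and ZT12 high for RpL37A (10.482).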

How the results depend on the processing

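In the tests of the rhythm over both days, within each day and of its difference, and in the mean level between the days, the count of members past the threshold stayed at 0 in limma under every alternative run, leaving out each array included, with 1 exception. Without ZT16, ZT24, CT4 and CT8, RpL39 passed in the fits with the index, for the days (0.93, adjusted p = 0.0075) and for the rhythm (count 1, adjusted p = 0.0142), with 8 arrays left. For the days, 0.988% of all probe sets passed in that fit, against 0% with all arrays. CT8, which was left out there, held the lowest RpL39 value (8.68). With the hour of day as a block, which pairs each ZT with its CT, 0 members passed and the median difference between the days was 0.20 without and 0.17 with the index, so the paired fit changed no call. Leaving out 1 array, that median ran from 0.14 to 0.27 without and from 0.12 to 0.25 with the index. The count of slopes on the index ran from 4 to 18 (falling: 4 to 17) and their median from -0.47 to -0.13, against 11, 10 and -0.23 with all arrays. Where the members' count was 4 (without CT4), 7.69% of all probe sets passed. Where it was 18 (without ZT24), 21.5% did, against 18% with all arrays. The count was 1 without ZT16, ZT24, CT4 and CT8 (falling: 0; median -0.20), 0 without ZT24 and CT4 (falling: 0; median -0.38), 0 with muscle markers added (falling: 0; median -0.0286) and 0 with an index over all control genes (falling: 0; median -1.31). The index over all control genes ran from 1.025 (ZT4) to 1.436 (ZT16), and the main index from 1.498 (CT20) to 2.998 (ZT24). A slope per unit of the former is on another scale, so the sizes of -1.31 and -0.23 cannot be compared. The count of slopes was 18 with array SD as covariate, and the median was -0.0307 after quantile normalization. Slopes changed sign for RpS7 (0.0017) and RpLP2 (-0.24) with muscle markers added and for RpLP0 (0.44) without ZT16, ZT24, CT4 and CT8. The cause of these changes was not tested. Leaving out arrays removes range of the index as well as samples. The alternatives with array SD, without 18S rRNA, without CT8 and without ZT24 and CT4 were chosen after seeing the data. No lower-level probe set could replace any member, since each had 1.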
